A study of Mus musculus with 48 samples.

Results

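Hox genes encode homeodomain transcription factors that sit in 4 clusters and carry the record of a cell's place along the body axis. Within a cluster the low-numbered genes are used towards the head and the high-numbered genes towards the tail and the ends of the limbs, and cells taken from the body keep much of their Hox pattern in culture. Fat depots differ in this pattern, and Hoxc8, Hoxc9 and Hoxc10 are used as marks of white inguinal fat. All genes named Hoxa, Hoxb, Hoxc or Hoxd followed by a number were taken from the 2 count tables, which gave 39 of 55450 genes. In mm10 the 11 Hoxa genes lie on chromosome 6, the 10 Hoxb genes on chromosome 11, the 9 Hoxc genes on chromosome 15 and the 9 Hoxd genes on chromosome 2.

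The study asked how loss of the nucleosome-binding proteins HMGN1 and HMGN2 changes the making of brown-like fat cells. Preadipocytes came from the inguinal white fat of C57BL/6 mice of 8 to 12 weeks, and mouse embryonic fibroblasts (MEFs) came from mid-gestation C57BL/6 embryos. Each source was taken from wild type (WT) mice and from mice that lack Hmgn1 and Hmgn2 in every cell (DKO, Hmgn1-/- Hmgn2-/-). Cells of day 0 were taken before differentiation. Differentiation used a mixture of insulin, dexamethasone, IBMX, T3 and rosiglitazone and then insulin with T3, the same in both genotypes. The mixture was given for 4 days to preadipocytes and for 8 days to MEFs. By this schedule preadipocytes of day 3 and MEFs of days 4 and 8 had received the mixture alone. RNA was sequenced from preadipocytes on days 0, 3, 6 and 9 and from MEFs on days 0, 4, 8 and 12, with 3 libraries in each of 16 groups. The study's legends speak of biological replicates, without saying whether each library of a group came from its own animal or culture, so p-values measure the spread between these libraries.

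The 48 libraries held 18962483 to 36006696 counts, of which 3327 to 12434 per library fell on Hox genes. Hmgn2 served as the check of the labels. It reached 34.6 to 151.6 CPM, counts scaled to the size of the library, in the 12 WT preadipocyte libraries and at most 0.372 CPM in the 12 DKO ones, and it reached 41.2 to 189.1 CPM in WT MEFs and at most 0.106 CPM in DKO MEFs. Hmgn1 reads remained in DKO libraries, at 77.6 to 111.6 CPM in preadipocytes, and since the removed stretch was not given in the sources used here they check nothing. The 2 sources also differed in sex-linked genes: Xist was at most 0.533 CPM in preadipocytes and at least 1153 CPM in MEFs, and the Y-linked Ddx3y was at 102.9 CPM or more in preadipocytes and at 0 in every MEF library. Tissue of origin, age of the animal and sex therefore cannot be told apart in any comparison of preadipocytes with MEFs.

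The clusters also hold the genes of miR-196 and miR-10, microRNAs that repress Hox messages, and miR-196a is known to act on Hoxc8 in the progenitors of white fat. The RefSeq mature sequences (GRCm38.p6) of the miR-196 pair are shown because 2 of the Hox genes named below, Hoxa7 and Hoxc8, hold matches to their seed, which is bases 2 to 8 and is set in capitals. miR-196a is encoded both at chr11:96265187-96265208 and at chr15:102973365-102973386, and miR-196b at chr6:52230129-52230150 on the minus strand. The stretches of 23 bases from the 3′ untranslated regions of Hoxa7 and Hoxc8 that end 1 base after a match to the seed follow, with the match in capitals.
miR-196a-5p: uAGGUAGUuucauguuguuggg
miR-196b-5p: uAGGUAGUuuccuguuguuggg
Hoxa7 site at base 313: aggcacagccaaaatACTACCTa
Hoxa7 site at base 350: gagaggcactcccaaACTACCTa
Hoxa7 site at base 482: caaaccatgatcaatACTACCTa
Hoxa7 site at base 503: tactactagccctaaACTACCTa
Hoxc8 site at base 138: acactcacaactctaACTACCTg
Hoxc8 site at base 895: ataaatctttaacatACTACCTa

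Of the 39 Hox genes, 9 (23.1%) held ACTACCT in the 3′ untranslated region, searched on the transcript strand only, against 5.93% of 21685 genes with such a region. Among them were Hoxa4, Hoxa5, Hoxa7, Hoxa9, Hoxb1, Hoxb6, Hoxb7 and Hoxc8. The seed match of miR-10, ACAGGGT, was found in 4 (10.3%) against 12.1% of genes. These are matches of letters in long or short regions alike, and the mature microRNAs themselves were not measured in these libraries.

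Most Hox genes were present in both cell sources. In preadipocytes 34 of the 39 rose above a floor of 3 counts in at least 1 library, 30 reached 1 CPM and 13 reached 10 CPM, and in MEFs the numbers were 37, 31 and 12. On day 0 each source had 1 leading gene in each cluster, judged in WT libraries by CPM per kilobase of exon (CPM per kb), the scale on which levels of different genes are compared here. In preadipocytes these were Hoxa10 at 9.65, Hoxb9 at 23.7, Hoxc10 at 27.1 and Hoxd8 at 2.42 CPM per kb. In MEFs they were Hoxa10 at 4.28, Hoxb9 at 12.7, Hoxc6 at 9.63 and Hoxd8 at 10.8 CPM per kb. By the union of exons the order thus ran Hoxc10, Hoxb9, Hoxa10, Hoxd8 in preadipocytes and Hoxb9, Hoxd8, Hoxc6, Hoxa10 in MEFs. Divided by the longest transcript instead, the preadipocyte order held, while in MEFs Hoxc6 came first at 14.7 CPM per kb, before Hoxb9 at 12.7, Hoxd8 at 11.2 and Hoxa10 at 5.46.

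**Figure D1:**
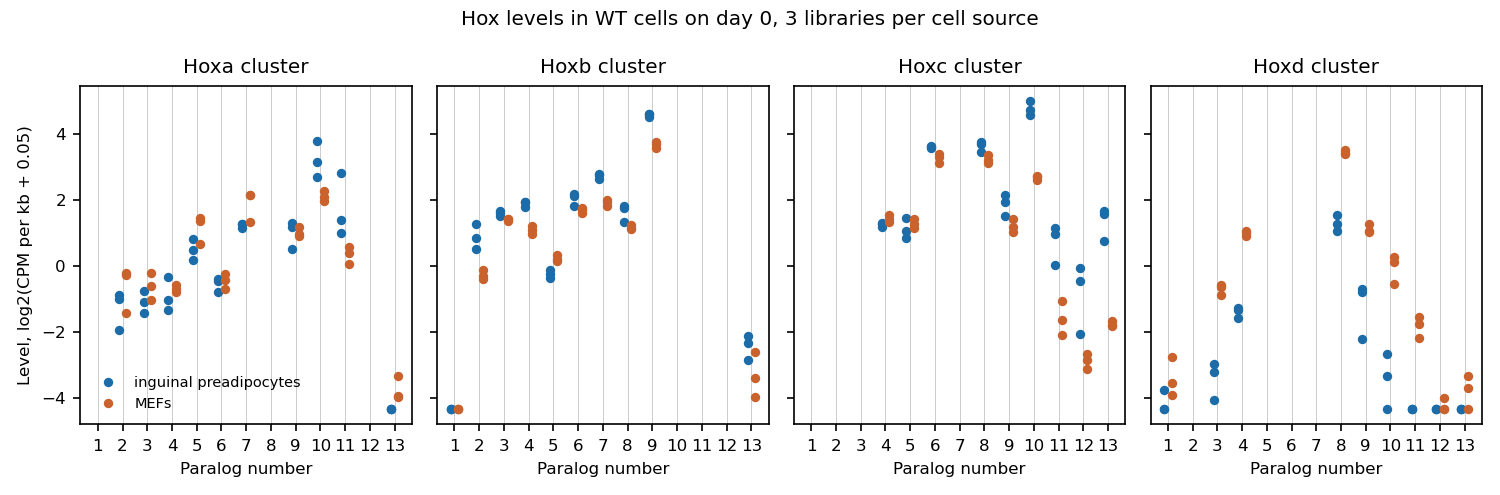
Level of the Hox genes reported here on day 0 in the 3 WT preadipocyte and 3 WT MEF libraries, as log2(CPM per kb + 0.05), arranged by cluster and paralog number with 1 point per library. Hoxb9 and Hoxc10 stood highest in preadipocytes, at 23.7 and 27.1 CPM per kb, and Hoxd8 stood at 2.42 CPM per kb there against 10.8 in MEFs.

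Summed over a cluster, the 4 clusters took unequal parts of the Hox reads. In WT preadipocytes on day 0 the Hoxc genes summed to 148 ± 17.7 CPM (SD, n = 3), the Hoxb genes to 118.3 ± 5.3 CPM, the Hoxa genes to 68.6 ± 22.5 CPM and the Hoxd genes to 8.82 ± 1.69 CPM. The Hoxd genes therefore made up 2.57% of Hox CPM in WT preadipocytes and 18.0% in WT MEFs, where they summed to 45.1 ± 0.42 CPM. Genes of paralog groups 9 to 13, the most posterior ones, made up 53.8% of Hox CPM in WT preadipocytes (52.2% to 56.2% over the libraries) and 34.6% in WT MEFs (33.8% to 35.1%). The Hoxa sum varied between the WT preadipocyte libraries of day 0, at 64.7, 48.2 and 92.8 CPM in libraries 1, 2 and 3, and Hoxa11 alone was 5.85, 4.42 and 16.1 CPM.

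**Figure D2:**
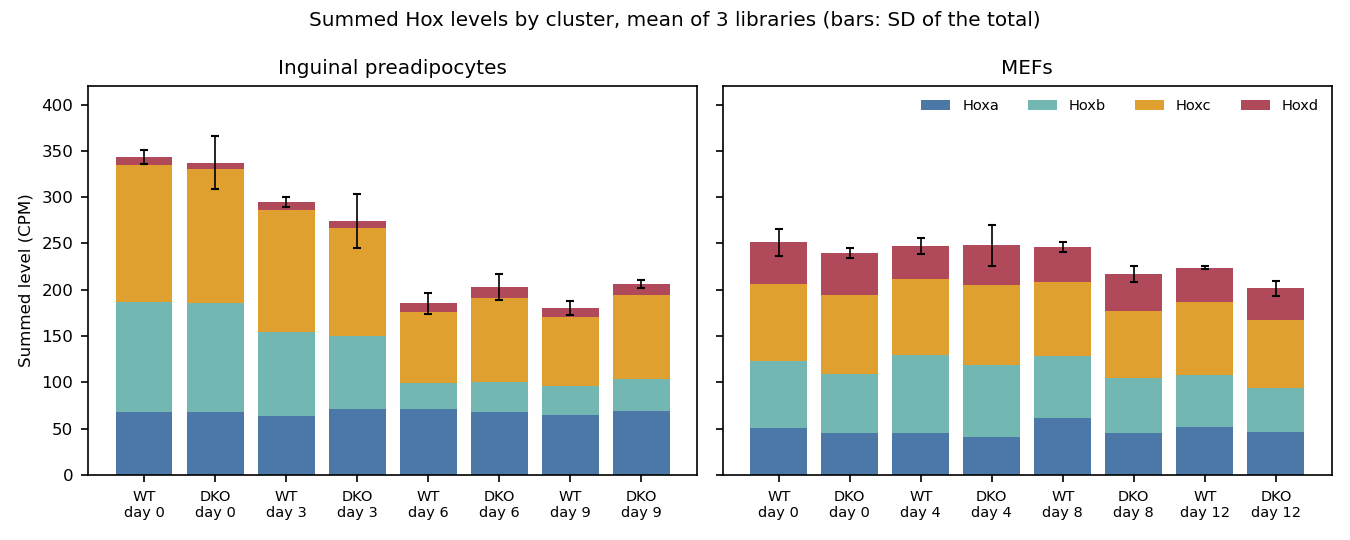
Summed CPM of each Hox cluster by day in preadipocytes and MEFs of both genotypes, as stacked bars of the mean of 3 libraries with the SD of the total as the error bar. In WT preadipocytes the sum over all Hox genes was 343.7 CPM on day 0 and 180.5 CPM on day 9, while in WT MEFs it was 251.3 CPM on day 0 and 223.7 CPM on day 12.

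Which Hox genes separated adult inguinal preadipocytes from embryonic fibroblasts was asked on day 0, within each genotype. A gene was called where edgeR's quasi-likelihood test gave a Benjamini-Hochberg adjusted p under 0.05 and the groups differed at least 1.5-fold. In WT cells 32 of the 39 genes had enough counts to be tested, and 19 were called, 11 higher and 8 lower in preadipocytes. The background over all 15726 genes tested was 38.6% called, with 18.7% higher and 19.9% lower. In DKO cells 13 of 32 were called, 7 higher and 6 lower, against a background of 28.9%, with 13.9% higher and 15.0% lower. The libraries of the 2 sources did not overlap for 25 of the 32 genes in WT (background 69.4%) and for 21 in DKO cells (background 54.0%). Of the called genes, 12 were shared between genotypes with the same direction, 63.2% of the WT calls and 92.3% of the DKO calls. Hoxd3, Hoxd10 and Hoxd11 were among these and among the genes called lower. They passed the filter on low counts through MEFs alone, so their shared direction was fixed by the filter. Hoxd9 in both genotypes, Hoxc11 in WT cells and Hoxc13 in DKO cells likewise passed it through 1 source, as given below. The share of such overlap over all genes was not computed. The 7 genes not tested in either genotype were Hoxa13, Hoxb1, Hoxb13, Hoxc12, Hoxd1, Hoxd12 and Hoxd13, of which only Hoxc12 reached 1 CPM in any library, at up to 1.27 CPM in preadipocytes. Hoxb1 had no count in any of the 48 libraries. The 12 tested genes called in neither genotype were Hoxa2, Hoxa3, Hoxa4, Hoxa6, Hoxa9, Hoxb3, Hoxb5, Hoxb6, Hoxc4, Hoxc5, Hoxc6 and Hoxc8, with log2 differences between -0.87 and 0.68.

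Hoxd4 and Hoxd8 were lower in preadipocytes in both genotypes. Hoxd3, Hoxd10 and Hoxd11 passed the filter on low counts through MEFs alone, so their direction was fixed by the filter and is given only as values. The same holds for Hoxd9 in both genotypes. Preadipocyte library 1 in WT and library 2 in DKO cells lay under the filter, and 3 libraries were needed. Hoxd8, the most abundant Hoxd gene, was at 5.54, 7.86 and 6.49 CPM in WT preadipocytes and at 28.7, 31.0 and 29.0 CPM in WT MEFs. The groups did not overlap, and the log2 difference was -2.25 ± 0.13 (SE) in WT cells (edgeR quasi-likelihood, adjusted p = 5.21e-06) and -2.63 ± 0.30 in DKO cells (edgeR, adjusted p = 0.00246), where preadipocytes had 6.79, 4.99 and 3.20 CPM and MEFs 35.6, 23.4 and 27.8 CPM. Hoxd4 was at 1.01, 1.07 and 0.842 CPM in WT preadipocytes against 6.05, 5.37 and 5.78 CPM in WT MEFs, a log2 difference of -2.64 ± 0.18. Hoxd9 was at 0.352, 1.21 and 1.14 CPM against 5.00, 4.39 and 4.24 CPM, a log2 difference of -2.43 ± 0.36. These 3 genes stood apart between sources in every library of both genotypes. The DKO log2 differences were -3.14 ± 0.34 for Hoxd4 and -3.15 ± 0.67 for Hoxd9, the latter only as a value.

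The other 3 Hoxd genes were close to or at 0 in preadipocytes. Hoxd3 had 0.0440, 0.326 and 0.248 CPM in WT preadipocytes and 2.48, 2.60 and 2.05 CPM in WT MEFs, a log2 difference of -3.61 ± 0.44. Hoxd10, a gene of the hindlimb and lumbar region, had 2, 0 and 4 counts in the WT preadipocyte libraries and 1.89, 1.15 and 2.12 CPM in WT MEFs. Hoxd11, a gene of the limb and sacral region, had 0 counts in all 3 WT and all 3 DKO preadipocyte libraries on day 0. In MEFs Hoxd11 was at 1.02, 0.709 and 1.24 CPM in WT and 0.334, 0.547 and 1.01 CPM in DKO libraries, so that against a floor of 3 counts per library it was at least 7.09-fold lower in WT and at least 5.54-fold lower in DKO preadipocytes. The calls of Hoxd4 and Hoxd8 were not lost in any of the 12 alternatives run for each genotype. Reads of Hoxd3 and Hoxd4 are uncertain, since the 2 gene models overlap and the counts were split between them.

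The 250 bases before the RefSeq start sites (GRCm38.p6) of Hoxd8, Hoxd10 and the more downstream of the Hoxd11 starts are shown for the Hoxd genes that separated the sources, all on the plus strand of chromosome 2. They lie at chr2:74704365-74704614, chr2:74691641-74691890 and chr2:74682073-74682322. Capitals mark any of 4 motifs searched on both strands, namely the TATA box (TATAAA), the CCAAT box, the core bound by many homeodomains (TAATTA) and the motif of Hox proteins paired with PBX (TGATTNAT), none of which overlaps another in the windows shown.
Hoxd8: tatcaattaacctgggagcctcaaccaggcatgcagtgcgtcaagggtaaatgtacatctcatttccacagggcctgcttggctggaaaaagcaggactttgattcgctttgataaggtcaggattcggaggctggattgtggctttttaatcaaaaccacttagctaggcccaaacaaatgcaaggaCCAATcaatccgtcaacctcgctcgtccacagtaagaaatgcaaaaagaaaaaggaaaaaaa
Hoxd10: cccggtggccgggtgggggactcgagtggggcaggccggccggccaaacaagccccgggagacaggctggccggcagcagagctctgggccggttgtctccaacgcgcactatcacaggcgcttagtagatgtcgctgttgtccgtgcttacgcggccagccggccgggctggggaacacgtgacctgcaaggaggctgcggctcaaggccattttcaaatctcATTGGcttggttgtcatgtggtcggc
Hoxd11: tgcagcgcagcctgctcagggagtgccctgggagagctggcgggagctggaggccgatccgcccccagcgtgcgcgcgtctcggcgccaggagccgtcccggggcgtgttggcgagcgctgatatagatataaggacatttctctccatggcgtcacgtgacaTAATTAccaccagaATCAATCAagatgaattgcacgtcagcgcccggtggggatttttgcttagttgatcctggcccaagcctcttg

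Among 24 start sites of 22 Hox genes in the RefSeq table, 58.3% held the CCAAT box, 16.7% the TATA box, 8.33% the homeodomain core and 8.33% the PBX-paired motif in this window. The homeodomain core was in 2 windows, both of Hoxd11, and the PBX-paired motif in 2, of Hoxa2 and Hoxd11. Over all 32851 start sites the shares were 33.8%, 12.4%, 4.84% and 2.82%. The Hox windows held a median of 12.5 CpG pairs, against 6 over all windows. Of the printed windows, that of Hoxd11 held both homeodomain motifs and those of Hoxd8 and Hoxd10 held CCAAT alone.

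The posterior end of the Hoxc cluster ran the other way. Hoxc10, which restrains browning of white fat, was at 50.0, 60.3 and 45.1 CPM in WT preadipocytes and at 12.6, 11.5 and 12.2 CPM in WT MEFs, a log2 difference of 2.01 ± 0.11 (edgeR quasi-likelihood, adjusted p = 5.04e-06). In DKO cells it was at 57.3, 46.0 and 47.2 CPM against 9.62, 11.0 and 7.89 CPM, a log2 difference of 2.30 ± 0.15. Every preadipocyte library was thus above every MEF library, in both genotypes. Hoxc11 was at 4.40, 3.86 and 1.98 CPM in WT preadipocytes and 0.372, 0.878 and 0.549 CPM in WT MEFs, with log2 differences of 2.42 ± 0.40 in WT and 2.69 ± 0.32 in DKO cells. Hoxc13, a gene of hair and tail, was at 7.61, 7.25 and 4.06 CPM against 0.652, 0.574 and 0.585 CPM in WT cells, a log2 difference of 3.29 ± 0.29. For Hoxc11, WT MEF library 1 lay just under the filter on low counts, so it was tested in WT cells through preadipocytes alone. The WT direction of Hoxc11 was thus fixed by the filter, and its WT difference is given only as a value. Hoxc10 in both genotypes and Hoxc11 in DKO cells did not lose their calls in any alternative.

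Hoxc13 and Hoxc9 were less steady. In DKO preadipocytes Hoxc13 was at 10.9, 3.95 and 2.87 CPM, with library 1 far above the others, against 0.594, 1.31 and 0.186 CPM in DKO MEFs. DKO MEF library 3 lay under the filter on low counts, so Hoxc13 was tested there through preadipocytes alone and its direction was fixed by the filter. Its log2 difference of 3.00 ± 0.80 is given only as a value. The call was lost on leaving out DKO preadipocyte library 1 or 2, or DKO MEF library 1 or 3. Hoxc9 was at 8.94, 8.04 and 9.64 CPM in DKO preadipocytes against 3.90, 4.65 and 4.83 CPM in DKO MEFs, a log2 difference of 0.89 ± 0.18 that held in all alternatives. In WT cells Hoxc9 was at 10.6, 9.11 and 6.84 CPM against 5.43, 4.79 and 6.37 CPM, a log2 difference of 0.59 ± 0.19 that lay at the limit of the fold required and was lost in 7 of 12 alternatives. Without WT preadipocyte library 1 or 2 its adjusted p was 0.0827 or 0.0534, and without WT MEF library 1 or 2 it was 0.0793 or 0.0847. The anterior Hoxc4, Hoxc5, Hoxc6 and Hoxc8 were not called in either genotype, and Hoxc6, the leading Hoxc gene of MEFs, was at 25.0, 20.9 and 23.6 CPM there and at 29.3, 29.8 and 28.6 CPM in WT preadipocytes.

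In the Hoxb cluster Hoxb9, a gene of the thoracic and lumbar trunk, was higher in preadipocytes of both genotypes. It was at 62.4, 58.9 and 62.0 CPM in WT preadipocytes and at 34.7, 33.0 and 30.3 CPM in WT MEFs, a log2 difference of 0.81 ± 0.07 (edgeR quasi-likelihood, adjusted p = 3.88e-05). In DKO cells the values were 77.9, 59.9 and 57.2 CPM against 32.4, 23.2 and 27.8 CPM, a log2 difference of 1.12 ± 0.17. No library of one source reached the other. Hoxb7 was called in WT cells only, at 9.59, 10.6 and 10.4 CPM against 6.05, 5.37 and 5.85 CPM with a log2 difference of 0.73 ± 0.12, and in DKO cells its difference was 0.53 ± 0.15. Hoxb4 was likewise called in WT cells, at 9.72, 9.63 and 8.77 CPM against 5.28, 4.89 and 5.82 CPM with a log2 difference of 0.73 ± 0.13, and its DKO difference was 0.25 ± 0.29. Hoxb8 was called in DKO cells, at 8.23, 8.04 and 7.29 CPM against 4.75, 3.31 and 3.56 CPM with a log2 difference of 0.92 ± 0.21, and its WT difference was 0.40 ± 0.16. The Hoxb8 call had an adjusted p of 0.0604 without DKO preadipocyte library 2 and 0.0552 without DKO MEF library 3. A direct test of whether the difference between sources depended on genotype called 0 of 33 Hox genes (edgeR), so a call in 1 genotype alone does not separate the genotypes.

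The Hoxa cluster held calls in both directions. Hoxa10, a gene of the lower trunk, was at 29.0, 20.8 and 44.8 CPM in WT preadipocytes and 15.7, 12.6 and 13.8 CPM in WT MEFs, a log2 difference of 1.08 ± 0.28. In DKO cells it was at 20.1, 36.9 and 45.2 CPM against 11.0, 12.9 and 15.8 CPM, a log2 difference of 1.26 ± 0.32. The preadipocyte libraries were spread over a wide range within each genotype. Leaving out WT MEF library 2 or 3 gave Hoxa10 an adjusted p of 0.0599 or 0.0529 in WT cells, and leaving out DKO preadipocyte library 2 or 3 or DKO MEF library 1 or 2 gave 0.0774, 0.0697, 0.0701 or 0.0695 in DKO cells. Hoxa5 and Hoxa7 were lower in WT preadipocytes, with log2 differences of -0.78 and -0.79, and Hoxa11 was higher by 1.55. The calls of Hoxa5, Hoxa7 and Hoxa11 were lost on leaving out any of 4, 3 and 3 single libraries, with adjusted p up to 0.123, 0.0597 and 0.123.

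**Figure D3:**
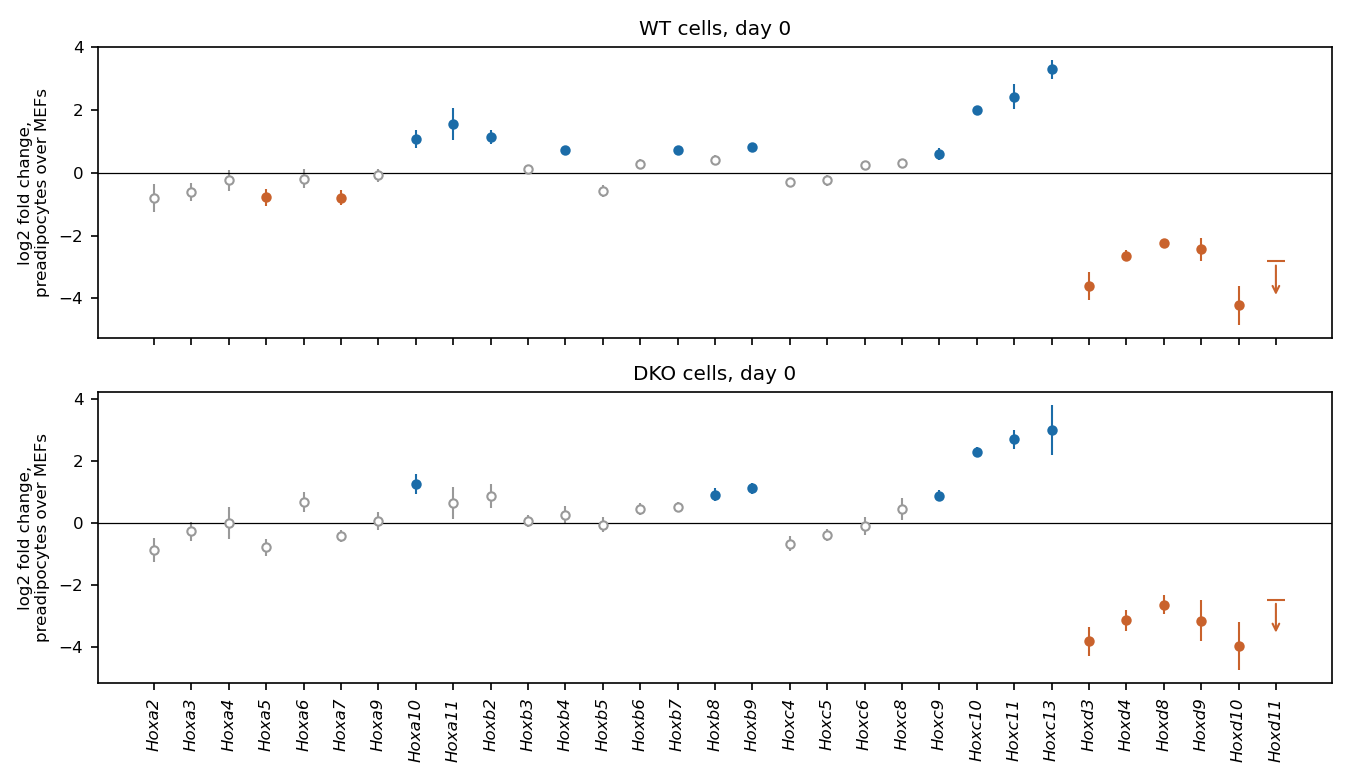
Log2 difference of preadipocytes against MEFs on day 0 for the tested Hox genes reported here, in WT and in DKO cells, with bars for the standard error, filled where called. Hoxd4, Hoxd8 and Hoxd9 lie below 0 in both genotypes and Hoxc10, Hoxc11 and Hoxb9 lie above 0 in both, and Hoxd11 is drawn as an arrow down from its bound, since it had 0 counts in preadipocytes. The direction of Hoxd9 in both genotypes and of Hoxc11 in WT cells was fixed by the filter on low counts.

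Markers of other cells moved with the source. The 6 macrophage markers (Ptprc, Adgre1, Csf1r, Cd68, Lyz2 and Tyrobp) were all lower in preadipocytes and summed to 31.5 to 470.5 CPM there, against 4963 to 7543 CPM in MEFs, and none of them was at 0 throughout either source. The 8 fibroblast and preadipocyte markers summed to 12530 to 17810 CPM in preadipocytes and 4710 to 10760 CPM in MEFs, with 3 higher and 3 lower in WT preadipocytes. Their part in the differences between sources was not tested. In such mixed cultures fewer cells of a type and less RNA per cell cannot be told apart.

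During differentiation of preadipocytes most Hoxb and Hoxc genes fell in both genotypes. In WT 2 of 10 tested Hoxa genes and 0 of 3 tested Hoxd genes were called, and in DKO 5 of 10 and 1 of 3. From day 0 to day 9 in WT preadipocytes, 17 of 29 tested Hox genes were called, 15 lower and 2 higher, where the background over all genes was 53.3% called, 26.7% lower and 26.6% higher. The 15 that fell were 7 of 8 tested Hoxb genes and all 8 tested Hoxc genes. In DKO preadipocytes 18 of 29 were called, 14 lower and 4 higher (background 55.6%, 28.6% lower and 27.0% higher), among them 5 of 8 Hoxb and 7 of 8 Hoxc genes. The libraries of the 2 days did not overlap for 21 of 29 genes in either genotype (backgrounds 77.1% in WT and 75.5% in DKO). The median log2 change over the tested Hox genes was -0.73 in WT and -0.60 in DKO, and over all genes it was 0.00464 and -0.00417. The lists of called genes in WT and DKO shared 14, which were 82.4% of the WT and 77.8% of the DKO calls. The share of such overlap over all genes was not computed. All 17 WT calls were kept in every one of the 12 alternatives run for each gene. Of the 18 DKO calls 7 were lost in at least 1 of 12, namely Hoxa6 in 9, Hoxb2, Hoxc13 and Hoxd8 in 5 each, Hoxc4 in 3, Hoxc6 in 2 and Hoxa7 in 1. Leaving out a DKO library gave an adjusted p by edgeR of 0.0644 to 0.12 for Hoxa6 (all but day 0 library 1), 0.0582 to 0.0766 for Hoxb2 (day 0 library 1 or any of day 9), 0.0588 to 0.0984 for Hoxc13 (day 0 library 1, day 9 library 1 or 3) and 0.0532 and 0.0537 for Hoxc4 (day 0 library 3, day 9 library 1). Without day 0 library 1 or 3 the change of Hoxc6 was -0.49 or -0.57 on the log2 scale, under the fold required.

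Hoxb9 showed the largest fall. In WT preadipocytes it was at 62.4, 58.9 and 62.0 CPM on day 0, at 55.1, 60.7 and 38.4 CPM on day 3, at 3.16, 3.47 and 7.76 CPM on day 6 and at 4.08, 3.24 and 5.09 CPM on day 9. In DKO preadipocytes it was at 77.9, 59.9 and 57.2 CPM, then 77.2, 30.4 and 29.9 CPM, then 5.97, 5.28 and 3.31 CPM, and on day 9 at 5.18, 6.92 and 3.53 CPM. The drop thus lay between days 3 and 6 in both genotypes, with log2 changes of -3.38 ± 0.38 in WT and -3.20 ± 0.48 in DKO over that step (edgeR quasi-likelihood, adjusted p = 4.42e-04 and 0.00142). From day 0 to day 9 the log2 change was -3.87 ± 0.15 in WT (edgeR, adjusted p = 2.22e-07) and -3.62 ± 0.27 in DKO (edgeR, adjusted p = 6.70e-05).

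Hoxb3 and Hoxc10 had the next smallest adjusted p among the genes that fell. Hoxb3 was at 12.7, 11.9 and 13.2 CPM on day 0 and at 4.47, 3.66 and 4.28 CPM on day 9 in WT, and at 11.7, 10.01 and 11.3 CPM and 5.13, 4.58 and 3.86 CPM in DKO, with log2 changes of -1.59 ± 0.13 and -1.26 ± 0.16. Hoxc10 went from 50.0, 60.3 and 45.1 CPM to 21.3, 21.3 and 25.0 CPM in WT and from 57.3, 46.0 and 47.2 CPM to 24.9, 26.6 and 26.6 CPM in DKO, with log2 changes of -1.18 ± 0.12 and -0.93 ± 0.10. No day 9 library of these genes reached the range of day 0. The other Hoxb and Hoxc genes called in WT had log2 changes between -0.69 (Hoxc6) and -2.19 (Hoxc13). Hoxb4, which patterns the neck and is used by blood stem cells, changed by -0.49 ± 0.12 in WT, under the fold required.

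A small set of Hoxa genes rose. Hoxa4, a gene of the neck region, was at 1.19, 0.558 and 0.694 CPM on day 0 and at 2.63, 2.27 and 2.29 CPM on day 9 in WT, and at 1.30, 0.484 and 0.376 CPM and 2.51, 2.90 and 3.44 CPM in DKO. Hoxa9, best known from leukaemia and limb patterning, was at 12.3, 7.72 and 13.5 CPM on day 0 and 24.7, 23.2 and 20.8 CPM on day 9 in WT, and at 6.79, 10.3 and 14.4 CPM and 25.9, 27.5 and 23.5 CPM in DKO. In both genes every day 9 library was above every day 0 library. The log2 changes were 1.56 ± 0.31 (WT) and 2.01 ± 0.47 (DKO) for Hoxa4 and 1.05 ± 0.20 and 1.31 ± 0.27 for Hoxa9. Hoxa7 was called in DKO, from 7.50, 5.77 and 5.97 CPM to 10.9, 8.89 and 11.8 CPM, a log2 change of 0.73 ± 0.17 (edgeR, adjusted p = 0.00828), and its WT change was 0.40 ± 0.12. Scaled by library size only, the DKO change of Hoxa7 was 0.47 on the log2 scale, under the fold required.

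Hoxa11, which lies next to Hoxa10, was called as lower in DKO, with a log2 change of -3.52 ± 0.48 (edgeR, adjusted p = 7.21e-04), and was chosen for the values of all its libraries after they were seen. It was at 3.07, 9.42 and 7.24 CPM on day 0 and at 0.513, 0.561 and 0.604 CPM on day 9 in DKO. In WT it was at 5.85, 4.42 and 16.1 CPM on day 0 and at 5.42, 1.16 and 0.968 CPM on day 9, so that library 1 overlapped day 0, and the log2 change of -1.81 ± 0.81 was not called. The other 7 tested Hoxa genes had WT log2 changes between -0.73 (Hoxa10) and 0.40 (Hoxa7) and were not called. The Hoxd genes tested, Hoxd4, Hoxd8 and Hoxd9, were not called in WT. Hoxd8 was called as higher in DKO, with a log2 change of 0.89 ± 0.29, a call lost on leaving out day 0 library 2 or 3 or day 9 library 1 or 3 (edgeR, adjusted p = 0.0791, 0.0573, 0.0927 and 0.0703).

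**Figure D4:**
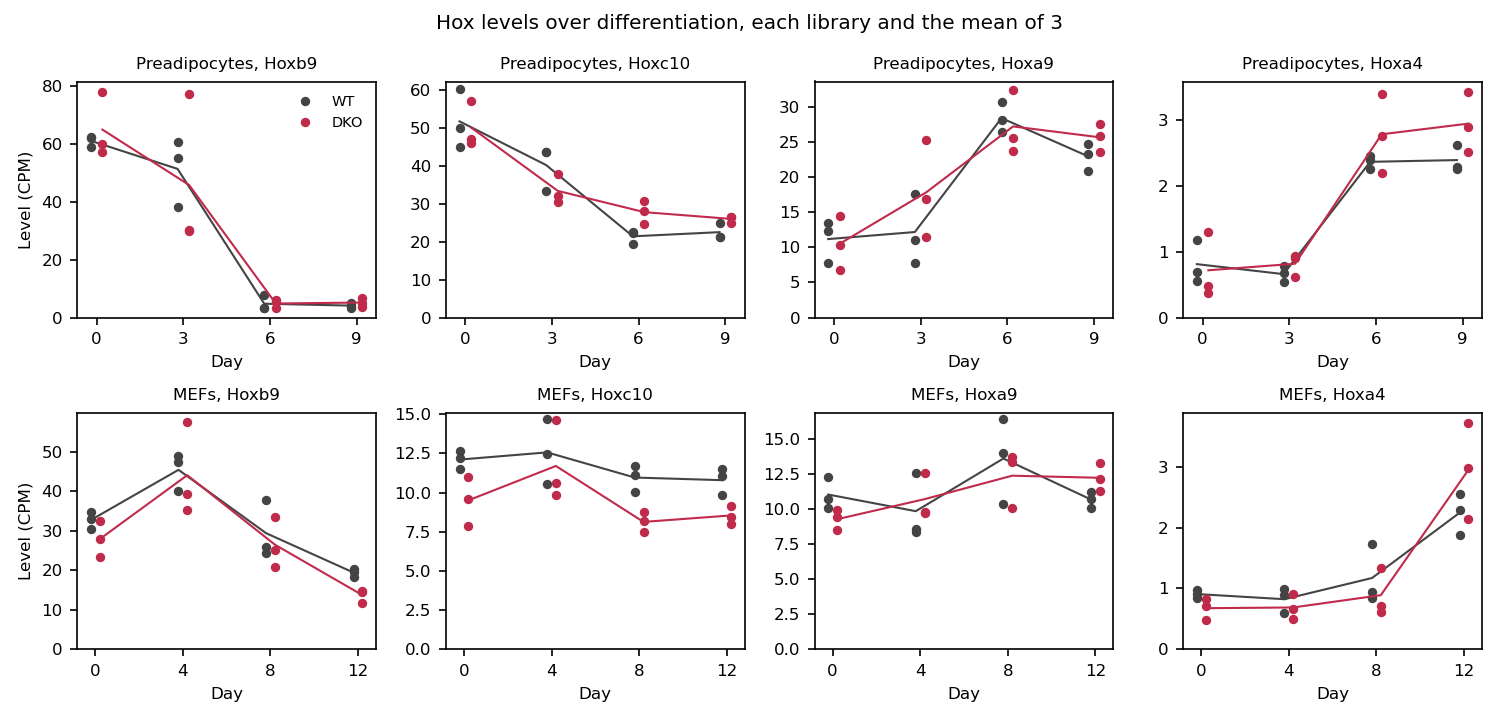
CPM of Hoxb9, Hoxc10, Hoxa9 and Hoxa4 by day of differentiation in preadipocytes and MEFs, with each library as a point and lines through the means of WT and of DKO libraries. Hoxb9 in WT preadipocytes stands at 58.9 to 62.4 CPM on day 0 and at 3.24 to 5.09 CPM on day 9, while in preadipocytes Hoxa4 and Hoxa9 stand higher on day 9 than on day 0.

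Taken step by step, calls in preadipocytes were most frequent between days 3 and 6 over all genes, and the Hox genes were called there at 44.8% in WT and 34.5% in DKO, under the background. In WT 4 genes were called between days 0 and 3, all lower (background 22.0%, 12.2% lower). Between days 3 and 6 there were 13, of which 11 were lower and 2 higher (background 45.9%, 24.0% lower and 21.9% higher), and between days 6 and 9 there were 2, both higher (background 17.3%, 11.2% higher). In DKO 7 were called in the first step, all lower (background 25.2%, 14.0% lower), 10 in the second, 8 lower and 2 higher (background 50.2%, 26.2% lower and 24.0% higher), and 1 in the last, which was higher (background 9.7%, 6.78% higher). With the replicate number as a block the first step in DKO gave 10 calls, 9 lower and 1 higher. The Hoxb genes made up 6 of the 7 early calls in DKO without the block, namely Hoxb2, Hoxb3, Hoxb5, Hoxb6, Hoxb7 and Hoxb8. Hoxb7 then rose between days 6 and 9 in both genotypes. The sum over all Hox genes in WT preadipocytes was 343.7 ± 7.65 CPM (SD, n = 3) on day 0 and 295.1 ± 5.45, 185.2 ± 11.6 and 180.5 ± 7.54 CPM on days 3, 6 and 9.

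Cell markers changed over the same days. All 6 adipocyte markers (Adipoq, Fabp4, Plin1, Cidec, Pparg and Lpl) rose in both genotypes and summed to 26230 to 27410 CPM in WT and 33210 to 40980 CPM in DKO preadipocytes on day 9. The fibroblast and preadipocyte markers summed to 12530 to 13200 CPM on day 0 and 4158 to 4772 CPM on day 9 in WT, with 4 of 8 lower and 1 higher. The 6 macrophage markers also rose, from 125 to 470.5 CPM on day 0 to 2611 to 5582 CPM on day 9 in WT and from 31.5 to 332.3 CPM to 1252 to 2539 CPM in DKO. The part of these shifts in the Hox changes was not tested.

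In MEFs, from day 0 to day 12, 5 of 32 tested genes were called in WT, 1 higher and 4 lower, against a background of 30.1% (15.8% higher, 14.3% lower), and 3 of 31 in DKO, 1 higher and 2 lower, against 24.8% (15.4% higher, 9.41% lower). The libraries of the 2 days did not overlap for 13 genes in WT (background 66.2%) and 8 in DKO (background 52.1%). Of the genes called lower in WT, Hoxd11 and Hoxc13 passed the filter on low counts through day 0 alone, as given below. Hoxa4 rose and Hoxb9 fell in both genotypes. Hoxa4 was at 0.900, 0.979 and 0.841 CPM on day 0 and 2.30, 1.88 and 2.56 CPM on day 12 in WT, and at 0.483, 0.820 and 0.717 CPM and 2.98, 3.73 and 2.15 CPM in DKO, with log2 changes of 1.29 ± 0.24 and 2.15 ± 0.33. Hoxb9 was at 34.7, 33.0 and 30.3 CPM on day 0 and 20.3, 18.3 and 19.5 CPM on day 12 in WT, and at 32.4, 23.2 and 27.8 CPM and 14.5, 11.7 and 14.7 CPM in DKO. Its log2 changes were -0.77 ± 0.07 (edgeR quasi-likelihood, adjusted p = 4.27e-07) and -0.997 ± 0.16 (edgeR, adjusted p = 0.00412). Both genes kept their calls in every alternative that was run for this comparison, and the days of the 2 sources differ, so their sizes are not compared here.

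The remaining MEF calls were of low or split genes. Hoxd11 was at 1.02, 0.709 and 1.24 CPM on day 0 and 0.530, 0.260 and 0.394 CPM on day 12 in WT, a log2 change of -1.36 ± 0.38. Since day 12 library 2 lay under the filter on low counts, Hoxd11 was tested there through day 0 alone. Its direction was fixed by the filter, and the change is given only as a value. Hoxd3 was at 2.48, 2.60 and 2.05 CPM and 1.41, 1.72 and 1.46 CPM in WT, a log2 change of -0.64 ± 0.21 (edgeR, adjusted p = 0.0171). Without day 0 library 1 or day 12 library 1 or 3 the adjusted p of Hoxd3 was 0.0539, 0.0523 or 0.0553, and without day 0 library 2 the change was -0.57, under the fold required. Hoxc13 was called as lower in WT at less than 1 CPM in all 6 libraries. It too passed the filter on low counts through day 0 alone, so its direction was fixed by the filter. The call of Hoxc13 was lost without day 0 library 1 or day 12 library 1 or 3 (edgeR, adjusted p = 0.0609, 0.0759 and 0.0828). Hoxc4 was at 7.54, 10.03 and 8.82 CPM on day 0 and at 5.71, 5.09 and 5.35 CPM on day 12 in DKO, a log2 change of -0.68 ± 0.16 that was lost without any of the 3 day 12 libraries (edgeR, adjusted p = 0.0683, 0.0882 and 0.0803).

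The count of calls in MEFs depended on the scaling. With library size as the only scaling, which shifted the median of all genes by -0.15 in WT and -0.25 in DKO on the log2 scale, 8 Hox genes were called in each genotype, 1 higher and 7 lower. Between days 0 and 4, 6 Hox genes were called in WT (background 33.4%, 18.4% lower) and 1 in DKO (background 21.4%, 11.7% lower), all lower. Between days 4 and 8 edgeR called 0 in either genotype, where the background was 0.0% and 4 Hox genes in each had an unadjusted p under 0.05. Between days 8 and 12, 1 rose and 1 fell in WT (background 21.5%, 12.4% higher and 9.09% lower) and 3 rose and 1 fell in DKO (background 24.0%, 12.6% higher and 11.5% lower), the gene that fell being Hoxb9 in both. Over days 0 to 12 the 6 adipocyte markers rose in both genotypes, to 14500 to 14870 CPM in WT and 21670 to 22850 CPM in DKO MEFs, and 5 of 6 macrophage markers fell in WT and 1 of 6 in DKO.

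Whether loss of HMGN1 and HMGN2 altered the Hox pattern was asked on each day within each cell source, with 28 to 32 Hox genes tested. On day 0 no Hox gene was called in preadipocytes (edgeR quasi-likelihood, background 0.218%) or in MEFs (background 0.102%), and 0 and 3 genes had an unadjusted p under 0.05. None was called on day 3 in preadipocytes (1 under 0.05, background 0.337%) or on days 4 and 8 in MEFs (1 and 5 under 0.05, backgrounds 0.0905% and 0.0595%). DESeq2 and limma-voom called none at these points either. The log2 differences of the tested genes lay between -0.65 and 0.51 in preadipocytes and between -0.62 and 0.48 in MEFs on day 0, with a median SE of 0.24 and 0.25.

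On day 6 of preadipocyte differentiation 2 of 28 tested Hox genes were called, both higher in DKO, against a background of 11.6% of all genes (5.03% higher). Hoxa7 was at 6.11, 6.41 and 5.35 CPM in WT and at 9.15, 8.51 and 10.6 CPM in DKO libraries, a log2 difference of 0.64 ± 0.15 (edgeR, adjusted p = 0.0188). Hoxd9 was at 0.656, 0.662 and 0.701 CPM in WT and 1.22, 1.06 and 1.32 CPM in DKO libraries, a log2 difference of 0.82 ± 0.25 (edgeR, adjusted p = 0.0467). The genotypes did not overlap in either gene, nor in 13 of the 28 tested Hox genes in all, against a background of 42.8%. Hoxa7 had an adjusted p of 0.0506 without WT library 1, 0.0872 without WT library 3 and 0.0741 without DKO library 3. Hoxd9 was lost in 11 of 12 alternatives, on leaving out any one of the 6 libraries, with adjusted p from 0.0572 without DKO library 2 to 0.153 without DKO library 3.

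Hoxc8, named here after its values were seen, had the smallest adjusted p of the Hox genes on days 6 and 9 in preadipocytes but stayed under the fold required. It was at 21.9, 22.4 and 22.2 CPM in WT and at 30.2, 33.0 and 28.9 CPM in DKO libraries on day 6, a log2 difference of 0.45 ± 0.08 (edgeR, adjusted p = 0.00867). On day 9 it was at 19.8, 20.4 and 22.7 CPM in WT and 28.5, 31.5 and 29.8 CPM in DKO libraries, a log2 difference of 0.48 ± 0.08 (edgeR, adjusted p = 0.0455). Each DKO library lay above each WT library on both days. On day 0 the order was mixed, with 36.8, 37.7 and 30.8 CPM in WT and 41.5, 26.6 and 30.9 CPM in DKO libraries, and the change in the genotype difference from day 0 to day 9 was 0.58 ± 0.20 with an adjusted p of 0.211 (edgeR). Hoxc8 and Hoxa7 hold the miR-196 matches printed above, and of the 6 other tested genes with a match 3 had a day 6 difference above 0 and 3 below, none of them called. On day 9 no Hox gene was called (background 1.24%, 3 with an unadjusted p under 0.05, edgeR), and DESeq2 called 1 as lower and limma-voom none.

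On day 12 of MEF differentiation 1 of 31 tested Hox genes was called, Hoxa11, lower in DKO, against a background of 7.98% (4.05% lower). The libraries of the 2 genotypes did not overlap for 12 genes, against a background of 46.8%. Hoxa11 was at 2.82, 4.77 and 3.78 CPM in WT and at 2.61, 1.5 and 2.72 CPM in DKO libraries, and the log2 difference was -0.74 ± 0.24 (edgeR, adjusted p = 0.0290). The call was lost without WT library 2 or 3 (adjusted p = 0.186 and 0.0859, edgeR), and without DKO library 2 the difference was -0.53, under the fold required. Hoxb9 had the smallest adjusted p, 6.08e-04 by edgeR, at a log2 difference of -0.50 ± 0.09, with 20.3, 18.3 and 19.5 CPM in WT and 14.5, 11.7 and 14.7 CPM in DKO libraries. Hoxa10, Hoxb3, Hoxc4, Hoxc5 and Hoxc10 also had an adjusted p under 0.05 at less than the fold required, and all 5 were lower in DKO.

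**Figure D5:**
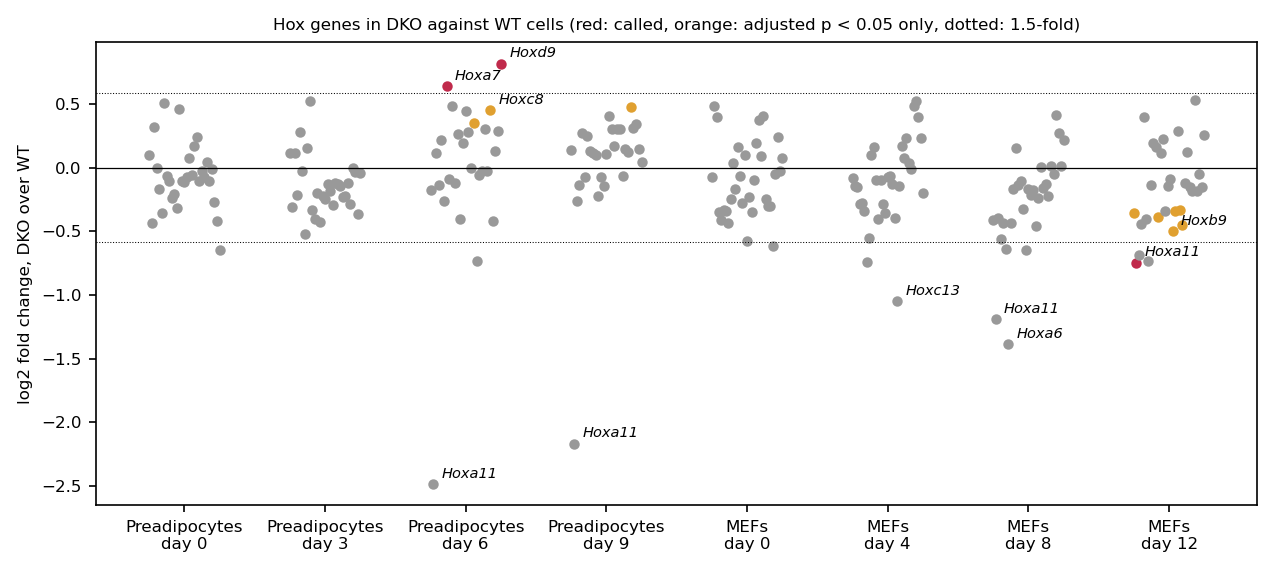
Log2 difference of DKO against WT for the tested Hox genes reported here on each day in preadipocytes and MEFs, with called genes in red, genes with only an adjusted p under 0.05 in orange and the 1.5-fold limits dotted. Only Hoxa7 and Hoxd9 on day 6 in preadipocytes and Hoxa11 on day 12 in MEFs are red, at 0.64, 0.82 and -0.74.

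The genotype effect itself was compared between sources and days. No Hox gene had a called difference between preadipocytes and MEFs on day 0 (0 of 33, none with an unadjusted p under 0.05, background 0.0844%), between day 9 and day 0 in preadipocytes (0 of 30, 2 under 0.05, background 0.0555%) or between day 12 and day 0 in MEFs (0 of 32, 5 under 0.05, background 1.42%), all by edgeR. DESeq2 called 0, 0 and 1 Hox genes in these tests and limma-voom 0 in each. Hoxc4 in MEFs came closest, with a change of -0.67 ± 0.18 on the log2 scale and an adjusted p of 0.0854 by edgeR. Macrophage markers were also lower in DKO than in WT preadipocytes on day 6, with sums of 1901 to 3955 CPM against 5180 to 8762 CPM and 1 of the 6 called, and the adipocyte markers summed to 27580 to 33830 CPM against 21130 to 25130 CPM, with 0 of 6 called. Of the fibroblast and preadipocyte markers 3 of 7 tested were called lower and 1 higher, with sums of 937.7 to 1330 CPM against 2421 to 2969 CPM, and of the nerve and glia markers 3 of 5 were lower. In MEFs on day 12, 4 of 6 adipocyte markers and 3 of 4 epithelial markers were higher in DKO, and 2 of 8 fibroblast and preadipocyte, 1 of 6 macrophage and 3 of 4 nerve and glia markers were lower. The part of these markers in the Hox values was not tested.

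Hox proteins bind DNA together with the TALE homeodomain proteins, the PBX, MEIS and PKNOX cofactors and the related TGIF repressors, and 11 of these genes were examined beside the Hox genes. Between sources, 4 of 11 were called in WT cells. Of these 1 was higher in preadipocytes and 3 were lower, among them Meis3 at a log2 difference of -0.78 ± 0.12 and Tgif2 at -0.93 ± 0.14, where the background was 18.7% higher and 19.9% lower. In DKO cells 0 of 11 were higher and 1 was lower (background 13.9% higher and 15.0% lower). The direct test of whether the difference between sources depended on genotype called 0 of the 11. In differentiating preadipocytes 5 of 10 tested were lower on day 9 in WT and 7 of 10 in DKO (backgrounds 26.7% and 28.6% lower), and none was higher. Tgif1 went from 40.4, 41.0 and 38.4 CPM to 20.5, 21.2 and 21.2 CPM, and Pbx3 and Meis1 changed by -1.18 ± 0.13 and -1.31 ± 0.17 on the log2 scale in WT. In MEFs 3 of 11 were lower on day 12 in WT and 5 of 11 in DKO (backgrounds 14.3% and 9.41% lower), with none higher. By genotype a single cofactor was called, Meis3 on day 6 in preadipocytes, with a log2 difference of -0.64 ± 0.17 in DKO (edgeR, adjusted p = 0.0315).

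Other regulators of position were described in the same way for a list of 46 genes outside the clusters, such as the Tbx, Zic, Fox and Irx factors. Of the 35 tested in WT cells on day 0, 15 were higher and 8 lower in preadipocytes than in MEFs (background 18.7% higher and 19.9% lower). Foxf2 was higher by 6.38 ± 0.32 on the log2 scale. Irx2 was lower, with a log2 difference of -0.97 ± 0.07. From day 0 to day 9 in WT preadipocytes 23 of 32 were lower and 1 was higher (background 26.7% lower and 26.6% higher), and Gdf11, a secreted factor that sets the position of the hindlimb, had a log2 change of -3.12 ± 0.08. In MEFs 7 of 33 were lower and 2 higher in WT by day 12 (background 14.3% lower and 15.8% higher). The 13 tested genes that flank the Hox clusters held 5 higher and 2 lower in WT preadipocytes by day 9 (background 26.6% higher and 26.7% lower).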

How the data were processed

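RNA was measured in 48 libraries, and the labels name it as polyA RNA while the methods name a stranded total RNA kit; the strand setting of the counting was not given in the sources used here. Per the labels the authors trimmed reads with cutadapt 1.18, aligned them with STAR 2.7.0f to mm10 with GENCODE M21 and counted genes with RSEM 1.3.0. The deposited values were expected counts per gene, not normalized, 1 table per cell source; 5.49% to 7.9% of values per library were not whole, and counts were rounded. All 55450 gene IDs matched GENCODE M21. Genes were filtered with filterByExpr, scaled by TMM (factors 0.797 to 1.21) and tested across all genes with edgeR 4.0.16 quasi-likelihood fits (R 4.3.3) of the groups compared, with Benjamini-Hochberg adjustment. A gene was called at an adjusted p under 0.05 and a fold of at least 1.5. CPM shown used 1 TMM scaling over all 48 libraries, and CPM per kb divided by the union of exons. Fold changes are on the log2 scale, and errors are SE.

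Library totals were 18962483 to 36006696 counts (medians 23978863 in preadipocytes and 23901661 in MEFs), and a floor of 3 counts per library was used for counting error only. Preadipocytes and MEFs were in separate tables of counts, so levels across them rest on the TMM scaling. Overlapping gene models (Hoxd3 with Hoxd4, Hoxc4, Hoxc5, Hoxc6 and Hoxc10, Hoxa3) carry split counts and are uncertain. In simulated counts for the WT comparison of sources on day 0, edgeR recovered 97% of 200 genes changed 4-fold. It recovered 90.5% for DKO against WT preadipocytes on day 0 and 79% for the difference of the DKO effect between sources.

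Members and gene lists were chosen with earlier results of these data known. Values in every library were given for Hox genes called by genotype whose libraries did not overlap, for the leading gene of each cluster on day 0, and for up to 6 genes per direction with the smallest adjusted p between sources and up to 3 per direction over time; of other lists at most 3 called genes per comparison were named, by smallest p. The alternatives were DESeq2 1.42.0, limma 3.58.1 voom with quantile normalization, scaling by library size only, no filter, a fit over more libraries, a block for the replicate number, and fits without each library in turn; the fits of each day against the day before, with and without the block, were chosen after seeing the data. Values of some single genes are not reported here, though counts over lists include them.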

Additional observations from a re-analysis of the deposited data

How the results depend on the processing

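No log2 fold change of a called Hox gene changed sign under an alternative: of the values for single genes, 843 stayed on the same side of the threshold, 98 were no longer called and 1, the ratio of Hoxa10 to Hoxd8 per kb in MEFs, moved from 0.399 to 0.488 when levels were divided by the longest transcript, which also put Hoxc6 (14.7 CPM per kb) before Hoxb9 (12.7) and Hoxd8 (11.2) in MEFs. The 2 genotype calls on day 6 in preadipocytes became 1 in the fit over all days, 1 by DESeq2, 0 with library size only, 1 without the filter and 1 with the replicate block, and 0 to 1 without single libraries. On day 9 DESeq2 called 1 in place of 0. The 1 call on day 12 in MEFs became 0 in the fit over all days, 2 with library size only and 0 to 1 without single libraries. In WT MEFs the 5 calls over time became 3 in the fit over all days, 8 with library size only and 3 to 5 without single libraries, and 2 for day 12 against day 8 and 0 for day 8 against day 4. In DKO MEFs the 3 calls became 8 with library size only and 2 to 5 without single libraries, and 1 for day 4 against day 0 and 0 for day 8 against day 4. In WT preadipocytes 17 calls compare with 4 for day 3 against day 0 and 2 for day 9 against day 6, and 17 to 19 without single libraries; in DKO 18 calls compare with 7, 10 and 1 for the 3 steps and with 13 to 17 without single libraries. The calls between sources were 16 to 21 in WT and 11 to 15 in DKO without single libraries. For the change of the genotype effect over time in MEFs, DESeq2 called 1 in place of 0, and 0 to 2 were called without single libraries, 2 without DKO day 0 library 1. The cause of these shifts was not tested.

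Scaling moved the balance of directions. With library size only, which shifted the median of all genes by -0.11 and -0.14 between sources and by -0.17, -0.27, -0.15 and -0.25 over time in WT and DKO preadipocytes and WT and DKO MEFs, the calls were 9 higher and 9 lower between sources in WT (in place of 11 and 8), and 2 higher and 19 lower over time in DKO preadipocytes (in place of 4 and 14). Without the filter they were 9 and 9 between sources in WT, and limma-voom gave 12 and 6 in WT and 10 and 6 in DKO.

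Same-numbered libraries of different groups are not stated to share an animal or culture. Across genotypes on day 3 in preadipocytes their deviations from the group means correlated at 0.431, 0.0319 and 0.524, where unlike numbers gave -0.655 to 0.336. With the replicate number as a block, 205 genes were called higher and 73 lower there over all genes, in place of 25 and 26. On each other day some same-numbered pair across genotypes correlated below 0. With the replicate number as a block the calls were 18 and 13 between sources, 17 and 17 over time in preadipocytes, 5 and 2 in MEFs, 1 by genotype on day 6 in preadipocytes and 1 on day 12 in MEFs, and 0 in the other genotype comparisons and in the changes of the genotype effect, where a block by culture also gave 0. Between consecutive days of 1 genotype all 3 same-numbered pairs correlated above 0.1 in preadipocytes, at 0.393 to 0.554 for DKO days 0 and 3, 0.356 to 0.442 for DKO days 6 and 9 and 0.12 to 0.435 for WT days 6 and 9, and the sources do not say that these are the same cultures. With the block these steps gave 10, 1 and 2 calls in place of 7, 1 and 2. In MEFs it gave 0 in place of 1 for DKO day 4 against day 0 and 1 in place of 2 for WT day 12 against day 8, and in the other steps the count stayed within 1.5 times.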

Other observations

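Antisense and noncoding transcripts within the clusters were measured in the same tables, with 20 of 22 listed names present. Hoxb3os, a transcript that runs opposite to Hoxb3, had log2 changes of 1.90 ± 0.49 and 1.84 ± 0.35 over differentiation in WT and DKO preadipocytes. In WT and DKO MEFs the changes were 1.99 ± 0.39 and 2.005 ± 0.35. In WT cells of both sources Hoxb3os passed the filter on low counts through the last day alone, so its direction was fixed by the filter. All 4 changes are therefore given only as values. In WT preadipocytes Hoxb3os was at 0.352, 0.372 and 0.149 CPM on day 0 and at 0.839, 1.71 and 0.713 CPM on day 9, so the libraries did not overlap, while Hoxb3 itself was lower on day 9. In WT MEFs Hoxb3os was at 0.186, 0.169 and 0.366 CPM on day 0 and 0.839, 1.10 and 0.907 CPM on day 12. Hoxa11os was at 1.39, 4.50 and 2.02 CPM on day 0 and 0.256, 0.281 and 0.186 CPM on day 9 in DKO preadipocytes, a log2 change of -3.41 ± 0.57, in the same libraries in which Hoxa11 was lower. Hoxa11os passed the filter on low counts through day 0 alone, so its direction was fixed by the filter and is given only as values. Since the strand setting of the counting is not stated, reads of these transcripts and of the genes they run against cannot be told apart with certainty.

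The genes that flank the clusters, such as Skap2, Skap1, Cbx5 and Mtx2, gave 13 tested genes. Of these 5 were higher and 2 lower over time in WT preadipocytes, 6 and 1 in DKO preadipocytes, 3 and 0 in WT MEFs and 4 and 0 in DKO MEFs, where the backgrounds were 53.3%, 55.6%, 30.1% and 24.8% called. Between sources 2 were lower in preadipocytes in WT and 1 in DKO cells (backgrounds 19.9% and 15.0% lower).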
